A study of Mus musculus with 26 samples.

Results

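Imprinted genes are described here as 41 named mouse genes of 19 imprinted clusters, followed through RNA-seq libraries of WT fetal gonads and of gonads carrying deletions at Fgf9 or a knockout of Meis1. The members were found by gene symbol or Ensembl identifier. All 41 were among the 57186 genes of the count table that holds WT and the 4 deletions, and 39 were among the 31053 genes of the table that holds WT and Meis1 KO. Peg13 and Rian were not analysed here in the latter. Polyadenylated RNA was sequenced from XY gonads dissected free of the mesonephros at stage E13.5, in 26 samples. The groups were WT (3 libraries), the Fgf9 genotypes Δ306 (3), Δ225 (6), Δ104 (4) and Δ93 (6), and Meis1 KO (4). Fgf9 encodes a secreted growth factor needed for testis development, and Meis1 encodes a homeobox transcription factor. Deletion boundaries, mouse strain, the parent that passed on an allele and shared litters are not stated in the labels. The labels call the replicates biological in all groups but WT and Δ306 and do not say that each came from its own embryo, so p-values measure the spread between these libraries. WT and Δ306 also carry earlier sample numbers than the other groups, and no batch is stated. In comparisons across these sets, a difference between the sets cannot be told apart from genotype.

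As background, an imprinted gene is transcribed mainly from the copy inherited from a particular parent, under DNA methylation laid down in the egg or sperm and kept in somatic cells. Such genes lie in clusters that share a control region, often with a long non-coding RNA that silences its neighbours on the same chromosome. Many act on fetal growth, and the germ cells of the fetal gonad erase the parental marks before they set new ones. Of the members, 24 are known as paternally and 17 as maternally expressed. The counts are per gene and do not separate the alleles.

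Libraries held 11582619 to 53392393 counts in the table of all deletions and 35468633 to 51732897 counts in the Meis1 table. Levels are given in CPM, counts scaled to a common library total, after a factor for composition. After a filter on low counts 39 of the 41 members were tested in the table of all deletions, Kcnk9 and Zrsr1 being too low, and all 39 present in the Meis1 table were tested there. Fgf9 was at 9.21 to 9.85 CPM in WT, 2.17 to 2.94 in Δ306, 3.69 to 16.5 in Δ225, 2.72 to 6.98 in Δ104 and 2.30 to 4.75 in Δ93, and Meis1 was at 62.1 to 109 CPM in WT and 0.201 to 0.695 CPM in Meis1 KO. Marker lists differed between groups. All 16 Sertoli genes were found, and their sum lay between 2865 and 3609 CPM in WT, from 352 to 885 in Δ306 and from 359 to 1428 in Δ93. In Δ225 replicates 1 to 3 the Sertoli sum was 1261, 1712 and 1176 CPM, below all WT libraries, and in replicates 4 to 6 it was 3417, 3446 and 2996 CPM, within their range. The sum of 7 fetal Leydig genes was 1071 to 1879 CPM in WT, 539 to 3559 in Δ225, 45.3 to 115 in Δ306, 56.7 to 402 in Δ93, and 42.5, 534, 1785 and 1968 in Δ104 replicates 1 to 4. The sum of 12 pre-granulosa genes was 287 to 328 CPM in WT, 317 to 448 in Δ225, 706 to 1173 in Δ306, 804 to 1653 in Δ93, and 1362, 783, 524 and 297 in Δ104 replicates 1 to 4. The sum of 4 Y-linked genes was under 1 CPM in 4 libraries although the samples are labelled XY. These were Δ306 replicate 3, Δ225 replicate 4 and Δ93 replicates 4 and 5, called low in Y-linked RNA below. Results of named genes that lose their call without them are named as such. All genes called in Δ306 against WT then fall from 1474 of 22941 to 102 of 23141. Other libraries were not at the WT level either. The sum was 31.2 to 77.2 CPM in WT, and every deletion library except Δ104 replicate 4 (36.2 CPM) lay below that range. Every Meis1 KO library also lay below every WT library of its table. In Δ93 against WT all 4 Y-linked genes were called lower (median log2 fold change −4.48). Leaving out the libraries under 1 CPM therefore does not remove the Y-linked difference between Δ93 and WT. WT replicate 1 had a germ cell sum of 55.7 CPM against 609.5 and 864 in the other WT libraries, and Δ225 replicate 3 a muscle sum of 1823 CPM. In these bulk libraries fewer cells of a type and less RNA per cell cannot be told apart, and the part of cell composition in the results below was not tested.

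Within groups of the same genotype, 5 members, H19, Mest, Peg13, Nnat and Grb10, were singled out with their library values known, so their levels are a description. A gene was counted as all-or-none within a group when its highest library reached 5 CPM and exceeded 16 times its lowest. Of the 39 members tested in each table, 2 met this in WT (H19 and Nnat), where 0.519% of all genes tested did. Peg13 met it in Δ306, where 0.231% of all genes did, and H19 in Δ225, where the share was 2.14%. In Δ104 the rule held for H19, Phlda2 and Peg13, beside 0.833% of all genes. Grb10 met it in Meis1 KO, beside 0.0476%, and 0 members met it in Δ93, beside 1.19%. Mest met it in no group, since its low libraries made up the whole of Δ93.

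**Figure D1:**
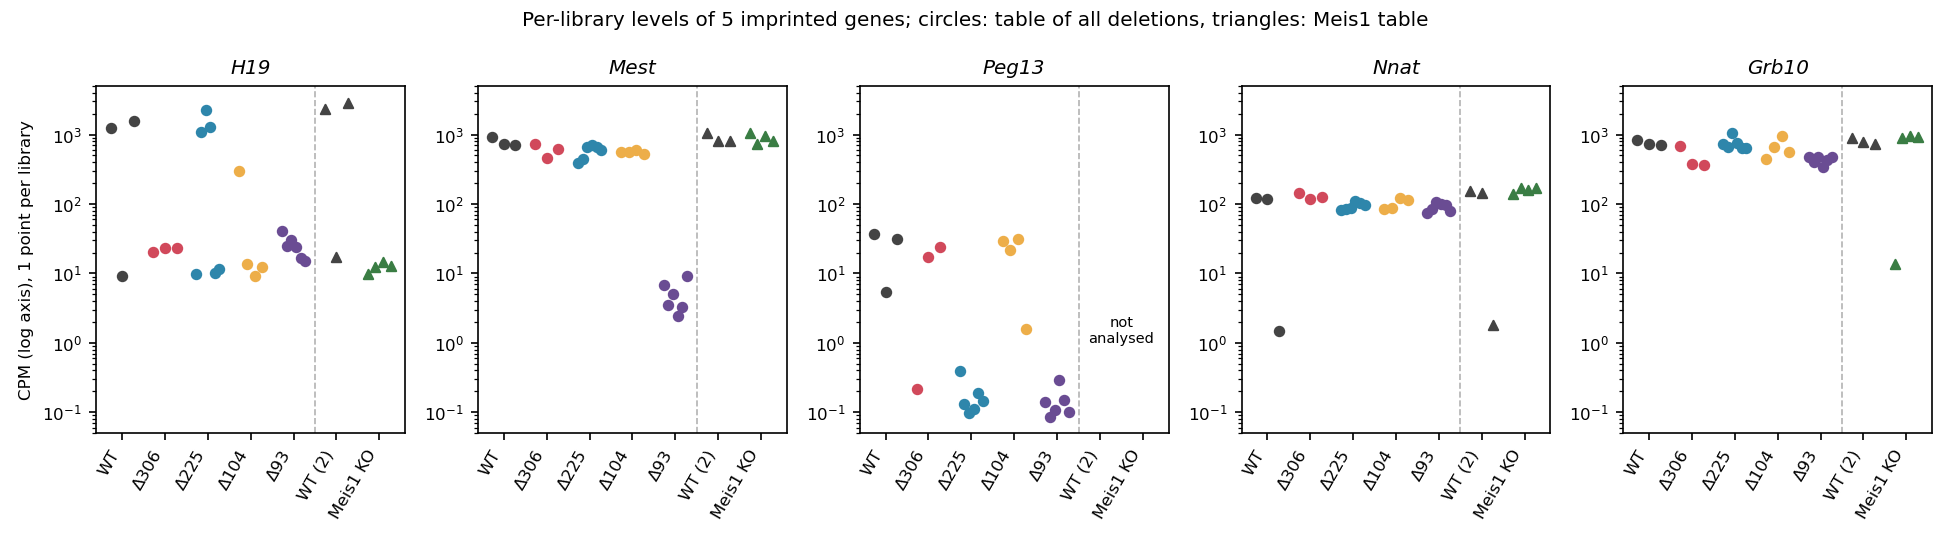
Level of H19, Mest, Peg13, Nnat and Grb10 in every library (CPM, log axis, 1 point per library, groups along the x axis; circles, table of all deletions; triangles, Meis1 table, whose WT libraries are the same samples). H19 is split within WT and Δ225, Mest is low in all 6 Δ93 libraries, Peg13 is low in all 12 libraries of Δ225 and Δ93, and Nnat and Grb10 are each low in a single sample.

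Mest, Nnat and Grb10 have promoter entries in the RefSeq table used (GRCm38.p6), and their 250 bases before a transcription start are shown because the genes differ in whether a whole genotype or a lone sample was low. Capitals mark the hexamer TGCCGC, in either orientation, the methylation-dependent recognition motif of the zinc-finger protein ZFP57, which maintains imprints.
Mest, chr6:30737800-30738049, plus strand: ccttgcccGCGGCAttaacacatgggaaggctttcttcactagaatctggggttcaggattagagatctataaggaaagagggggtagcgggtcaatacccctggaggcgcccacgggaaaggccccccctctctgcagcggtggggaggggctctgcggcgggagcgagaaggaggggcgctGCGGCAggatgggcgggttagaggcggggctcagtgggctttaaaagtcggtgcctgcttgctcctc
Nnat, chr2:157559828-157560077, plus strand: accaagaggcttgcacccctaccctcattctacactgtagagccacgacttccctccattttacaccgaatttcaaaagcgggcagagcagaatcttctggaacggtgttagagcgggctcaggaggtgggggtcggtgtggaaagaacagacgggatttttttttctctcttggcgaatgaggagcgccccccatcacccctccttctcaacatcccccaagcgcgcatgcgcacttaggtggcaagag
Grb10, chr11:12037421-12037670, minus strand: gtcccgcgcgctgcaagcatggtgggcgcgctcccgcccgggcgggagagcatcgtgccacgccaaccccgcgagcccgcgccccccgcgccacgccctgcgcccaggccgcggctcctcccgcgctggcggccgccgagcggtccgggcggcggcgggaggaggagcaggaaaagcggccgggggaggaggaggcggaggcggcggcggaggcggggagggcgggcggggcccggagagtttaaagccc
The Mest window shown held 2 matches and 14 CpG dinucleotides, the Nnat window 0 and 12, and the Grb10 window shown 0 and 40. Other windows of these genes differed: a Mest window at chr6:30733256-30733505 held 0 matches and 7 CpG dinucleotides and a Grb10 window at chr11:12027972-12028221 held 0 and 8, while a further Mest window overlaps the one shown. The hexamer was present on either strand in 8.68% of all 32851 RefSeq promoter windows. Entries existed for 33 members with 51 promoters, of which 8 promoters of 7 members (Zdbf2, Mcts2, Mest, Copg2, Zim1, Plagl1 and Meg3) held it. The median number of CpG dinucleotides was 10 in member promoters and 6 in all. A match describes these letters only, and 0 matches speak only of this window.

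H19, a maternally expressed long non-coding RNA (ENSMUSG00000000031, chr7:142575529-142578143, minus strand, GRCm38), was abundant in some libraries of a genotype and low in others. In WT replicates 1 to 3 it was at 1245, 9.21 and 1586 CPM. Replicates 2, 3 and 4 of Δ225 held 1089, 2242 and 1273 CPM, and replicates 1, 5 and 6 held 9.76, 10.01 and 11.6. The high and low libraries of these genotypes left no intermediate value. In Δ104, replicate 1 was at 298 CPM and replicates 2 to 4 at 13.9, 9.19 and 12.5. The 3 Δ306 libraries held 20.01, 23.3 and 23.6 CPM and the 6 Δ93 libraries 14.9 to 40.8 (median 24.3) CPM. All libraries of Δ306 and Δ93 therefore lay above WT replicate 2 and far below the other WT libraries. Against WT, H19 was lower in Δ93, with a fitted difference, here and below on the log2 scale, of −5.23 ± 1.45 (SE; adjusted p = 0.0199), and the groups overlapped. It was no longer called without WT replicate 1 (adjusted p 0.0575), without WT replicate 3 (0.0652) and without the 4 libraries low in Y-linked RNA (0.112). The call was also lost with the replicate number as a block (0.261). In Δ306 the change was −5.41 ± 1.96 (SE; adjusted p = 0.101) and in Δ104 −3.50 ± 1.59 (SE; adjusted p = 0.296), neither called.

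Igf2, the fetal growth factor encoded next to H19 and known as paternally expressed, did not split in the same way. It was at 172, 189 and 86.4 CPM in WT replicates 1 to 3, so that the WT library low in H19 held the most and WT replicate 3 the least. In Δ225 the libraries rich in H19 held 87.9, 161 and 99.9 CPM of Igf2 and the others 492, 167 and 129. These ranges overlapped. Igf2 was called in none of the 11 comparisons, with log2 fold changes against WT of 0.34 in Δ225 to 0.94 in Δ104. H19 is abundant in fetal muscle, and the summed level of 6 muscle genes was 45.1, 25.7 and 122 CPM in WT and 5.95, 21.0, 1823, 13.8, 9.70 and 10.8 CPM in Δ225 replicates 1 to 6. The libraries rich in H19 had the higher muscle sums within both groups, while Δ306, low in H19, had 88.4, 54.9 and 62.5 CPM and Δ104 replicate 1, the highest of Δ104 in H19, had 10.7 CPM against 16.02, 21.5 and 14.3 in the other Δ104 libraries. The part of muscle tissue was not tested.

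Mest, a paternally expressed gene for a hydrolase-fold protein of the endoplasmic reticulum (ENSMUSG00000051855, chr6:30723547-30748465, plus strand), was abundant in every group except Δ93. It was at 925, 721 and 698 CPM in WT, 719, 467 and 629 in Δ306, 386 to 695 (median 639) in Δ225 and 560.1, 566, 591 and 532 in Δ104. The 6 Δ93 libraries held 6.79, 3.56, 4.99, 2.41, 3.26 and 9.26 CPM, which rested on 91 to 363 counts. No Δ93 library came near the lowest library elsewhere, 386 CPM in Δ225 replicate 1. The difference was called against each of the other 4 genotypes, with −7.28 ± 0.33 (SE; adjusted p = 1.15e-11) against WT, and every alternative kept these 4 calls. With the replicate number as a block, the Mest difference between Δ93 and Δ104 was also called. In the Meis1 table Mest was at 1051, 813 and 797 CPM in WT and 1059, 738, 945 and 812 in Meis1 KO, a log2 fold change of 0.00.

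Copg2, which encodes a coat protein of transport vesicles, lies tail to tail with Mest, and the annotations overlap by 912 bases. It was at 71.3, 86.4 and 96.5 CPM in WT, 78.9, 83.9 and 89.9 in Δ306, 62.2 to 109 (median 98.1) in Δ225, 96.1, 96.1, 77.2 and 89.2 in Δ104 and 95.7 to 144 (median 124) in Δ93. Most Δ93 libraries lay above all WT libraries, and Δ93 replicate 1 (95.7 CPM) fell just under the highest of them. The rise in Δ93 against WT was 0.54 ± 0.16 (SE; adjusted p = 0.0271). It was lost without any single WT library (adjusted p 0.0518 to 0.182), without Δ93 replicate 2 (0.0707), with no filter on low counts (0.087) and without the libraries low in Y-linked RNA (0.111). With the replicate number as a block it was lost too. Reads in the shared bases cannot be assigned where strand is not used, and the strand setting of the counting is not given in the sources used here.

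**Figure D2:**
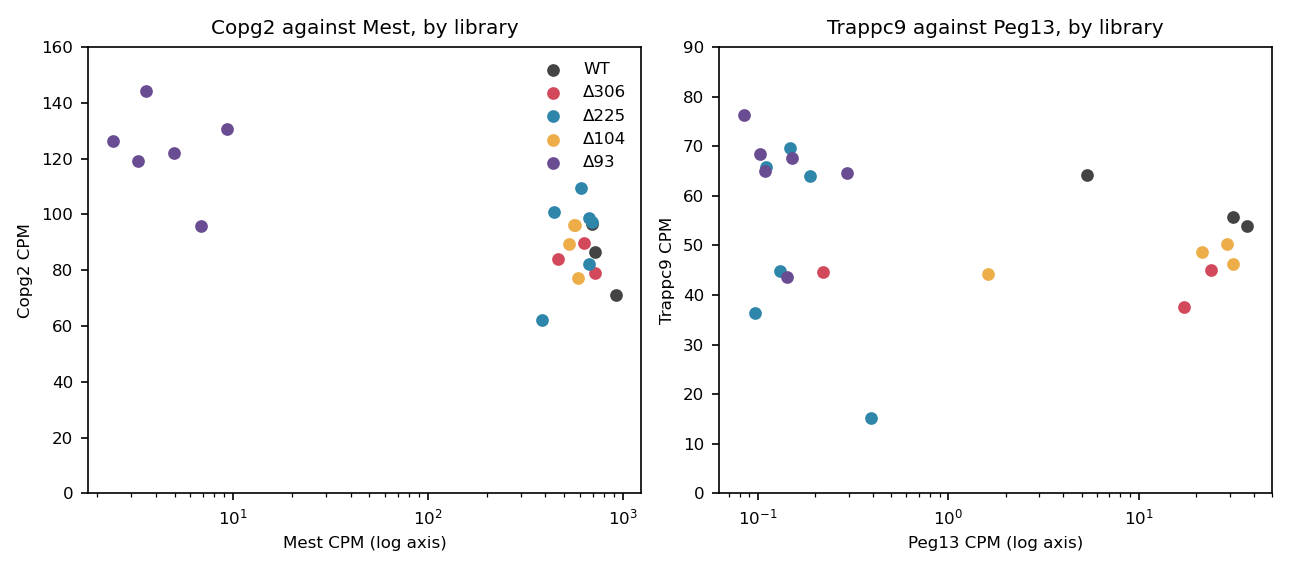
Copg2 against Mest (left) and Trappc9 against Peg13 (right) in the 22 libraries of the table of all deletions (CPM; log x axis, linear y axis from 0; 1 point per library, coloured by genotype). The 6 Δ93 libraries sit apart at low Mest with 95.7 to 144 CPM of Copg2, and Trappc9 spans 15.2 to 76.3 CPM across libraries with little Peg13.

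Peg13, a paternally expressed non-coding RNA inside an intron of Trappc9 (ENSMUSG00000106847, chr15:72805600-72810324, minus strand), was near zero in whole genotypes and in lone libraries of others. WT replicates 1 to 3 held 36.9, 5.36 and 31.0 CPM and Δ104 replicates 1 to 4 held 28.9, 21.5, 31.0 and 1.61. Δ306 replicate 1 had 0.219 CPM, from 5 counts, while replicates 2 and 3 had 17.3 and 23.9. In all 6 Δ225 libraries it was at 0.0967 to 0.390 (median 0.138) CPM, from 2 to 8 counts, and in all 6 Δ93 libraries at 0.0843 to 0.292 (median 0.125) CPM, from 3 to 11 counts. Every Δ225 and Δ93 library thus lay below every WT and Δ104 library, and Δ306 straddled the divide.

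Against WT the fitted log2 differences of Peg13 were −7.24 ± 0.95 (SE; adjusted p = 0.00129) in Δ225 and −7.36 ± 0.93 (SE; adjusted p = 2.79e-04) in Δ93, both kept under every alternative. They were −0.82 ± 0.91 (SE; adjusted p = 0.647) in Δ306 and −0.23 ± 0.84 (SE; adjusted p = 0.906) in Δ104, not called. Peg13 was also lower in Δ225 than in Δ306, with a log2 difference of −6.42 ± 0.93 (SE; adjusted p = 4.01e-04), and than in Δ104, with −7.005 ± 0.93 (SE; adjusted p = 0.00139). The call against Δ104 was lost with the replicate number as a block (adjusted p 0.0654). Peg13 was lower in Δ93 than in Δ306 too, with −6.54 ± 0.92 (SE; adjusted p = 0.00348). That difference was not called in a fit of these genotypes alone (adjusted p 0.0603), with the replicate number as a block or without the libraries low in Y-linked RNA (0.207). Between Δ93 and Δ104 the change of −7.13 ± 0.91 (SE; adjusted p = 8.43e-04) was not called with the replicate number as a block (adjusted p 0.0781) or without the libraries low in Y-linked RNA (0.051). Fold changes of a gene at a few counts depend on the fit, and their size is less certain than their direction.

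Trappc9 did not follow Peg13. The gene, which encodes a subunit of a vesicle-tethering complex and is known as maternally expressed in brain, was at 54.0, 64.1 and 55.8 CPM in WT, 15.2 to 69.6 (median 54.4) in Δ225 and 43.6 to 76.3 (median 66.3) in Δ93, where Peg13 was near zero. Its low value in Δ225 came from replicate 1, the shallowest library at 11582619 counts. Trappc9 was called in none of the 11 comparisons. Kcnk9, a potassium channel gene of the same cluster, had too few counts to be tested in the table of all deletions. It reached 2.72 CPM (62 counts) in Δ306 replicate 1, the Δ306 library without Peg13, and at most 0.242 CPM (7 counts or fewer) in the other 21 libraries. The 12 libraries of Δ225 and Δ93 lacked Peg13 as well and showed no such level of Kcnk9. The annotations of Peg13 and Trappc9 overlap by 4725 bases on the same strand, so some reads may be shared.

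Nnat, the paternally expressed gene for neuronatin, a small membrane protein of the endoplasmic reticulum (ENSMUSG00000067786, chr2:157560078-157562522, plus strand), was low in a single sample. WT replicates 1 to 3 held 123, 118 and 1.503 CPM. The 19 libraries of the deletions lay between 73.0 and 144 CPM. In the Meis1 table the WT libraries held 153, 142 and 1.82 CPM and the Meis1 KO libraries 138, 172, 159 and 169. WT replicate 3 was thus low in both tables, which hold the same WT samples, and Nnat was called in no comparison.

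Grb10, which encodes an adaptor that restrains insulin and growth factor receptor signalling (ENSMUSG00000020176, chr11:11930508-12038683, minus strand), was low in a single Meis1 KO sample. Meis1 KO replicate 1 held 13.48 CPM and replicates 2 to 4 held 893, 965 and 910.3, beside 899, 773 and 739.7 in WT. The spread left Grb10 uncalled in Meis1 KO, with −0.21 ± 0.95 (SE; adjusted p = 0.935). Across the deletions it was at 839, 720.3 and 700.2 CPM in WT, 678, 377 and 368 in Δ306, 645 to 1039.5 (median 689) in Δ225, 446, 668, 938 and 563 in Δ104 and 336 to 476 (median 452) in Δ93. All Δ93 libraries lay below all WT and Δ225 libraries, with −0.80 ± 0.21 (SE; adjusted p = 0.0161) against WT. The call against WT was lost without WT replicate 1 (adjusted p 0.076) and without the libraries low in Y-linked RNA (0.0654), while Δ225 exceeded Δ93 under every alternative, by 0.79 ± 0.18 (SE; adjusted p = 0.00398).

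Phlda2, of the Kcnq1ot1 cluster on distal mouse chromosome 7, had the largest fitted increase of any member in Δ306 and Δ93. Kcnq1ot1 is a paternally expressed RNA that silences neighbouring genes on its own chromosome, and Phlda2, Cdkn1c, Kcnq1 and Slc22a18 are maternally expressed neighbours. Phlda2, which encodes a pleckstrin homology domain protein that limits placental growth (chr7:143501545-143503150, minus strand), was at 0.0754, 0.311 and 0.264 CPM in WT and 0.0883 to 0.435 (median 0.268) CPM in Δ225. Δ306 held 5.40, 14.3 and 28.7 CPM and Δ93 5.04 to 19.3 (median 11.8). Neither Δ306 nor Δ93 overlapped WT or Δ225. In Δ104 replicates 1 to 4 Phlda2 was at 26.96, 7.81, 0.233 and 0.0486 CPM, so that replicates 1 and 2 were at the level of Δ93 or above it and replicates 3 and 4 at that of WT or below it. Against WT, Phlda2 rose in Δ306 by 6.18 ± 1.38 (SE; adjusted p = 0.0126) and in Δ93 by 5.79 ± 1.32 (SE; adjusted p = 0.00642). The call in Δ306 was lost without any single WT library (adjusted p 0.0521 to 0.0634), without Δ306 replicate 3 (0.0631) and without the libraries low in Y-linked RNA (0.0826), and that in Δ93 was kept throughout. The change was 5.31 ± 1.32 (SE; adjusted p = 0.0891) in Δ104 and 0.23 ± 1.199 (SE; adjusted p = 0.933) in Δ225.

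Kcnq1ot1 itself was called in no comparison. It was at 50.6, 18.1 and 9.57 CPM in WT, 55.1, 109 and 53.7 in Δ306, 15.1 to 119 (median 36.9) in Δ225, 71.4, 43.9, 62.3 and 41.9 in Δ104 and 20.7 to 110.0 (median 29.9) in Δ93, and its ranges overlapped throughout except between Δ306 and WT. Ascl2, a transcription factor gene needed in the placenta, stayed at or under 6.16 CPM in all 22 libraries and was not called. Among neighbours that are no members, Kcnq1, a potassium channel gene, was at 1.005, 0.777 and 0.870 CPM in WT, 5.62, 3.99 and 8.23 in Δ306 and 4.90 to 12.8 (median 10.2) in Δ93. It rose by 2.75 ± 0.68 (SE; adjusted p = 0.0216) in Δ306 and 3.43 ± 0.66 (SE; adjusted p = 0.00241) in Δ93. The transporter gene Slc22a18 rose by 3.45 ± 0.88 (SE; adjusted p = 0.0237) and 3.67 ± 0.84 (SE; adjusted p = 0.00653), from 0.452, 0.311 and 0.185 CPM in WT. Both calls in Δ93 were kept under every alternative, while those in Δ306 were lost without any single WT library, without Δ306 replicate 2 or 3 (adjusted p 0.0501 to 0.109 for Kcnq1 and 0.0655 to 0.116 for Slc22a18 over these) and without the libraries low in Y-linked RNA (0.136 and 0.148). Cdkn1c, which encodes an inhibitor of cyclin-dependent kinases, was at 109, 94.5 and 105 CPM in WT, 318, 268 and 271 in Δ306 and 242 to 334 (median 295) in Δ93, with changes of 1.47 ± 0.44 (SE; adjusted p = 0.049) and 1.49 ± 0.40 (SE; adjusted p = 0.0171). The Cdkn1c call in Δ306 was lost without any single library of Δ306 or WT (adjusted p 0.0982 to 0.16), with RLE scaling (0.0556), with no filter (0.0548) and without the libraries low in Y-linked RNA (0.165). Its call in Δ93 was lost without any single WT library (0.0607 to 0.0784) and without the libraries low in Y-linked RNA (0.084).

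Over the 22 libraries, Phlda2, Kcnq1 and Slc22a18 were low where the pre-granulosa sum was low and higher where it was high. Within Δ93 none of them kept the order of that sum. Phlda2 was at 5.04 CPM in Δ93 replicate 4, with a sum of 1347 CPM, and at 13.3 CPM in replicate 1, with 981 CPM. In Δ104 replicates 1 to 4 that sum was 1362, 783, 524 and 297 CPM, and Kcnq1 was at 7.80, 4.91, 1.105 and 0.486 and Slc22a18 at 4.39, 1.82, 0.465 and 0.195 CPM, in the same order as Phlda2. Cdkn1c did not keep that order, with 233, 239.9, 252 and 117 CPM, and Δ225 replicate 1, at 412 CPM, was the highest of all 22 libraries. All 12 pre-granulosa genes were found, and none was at 0 throughout a genotype. Their part in these increases was not tested.

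**Figure D3:**
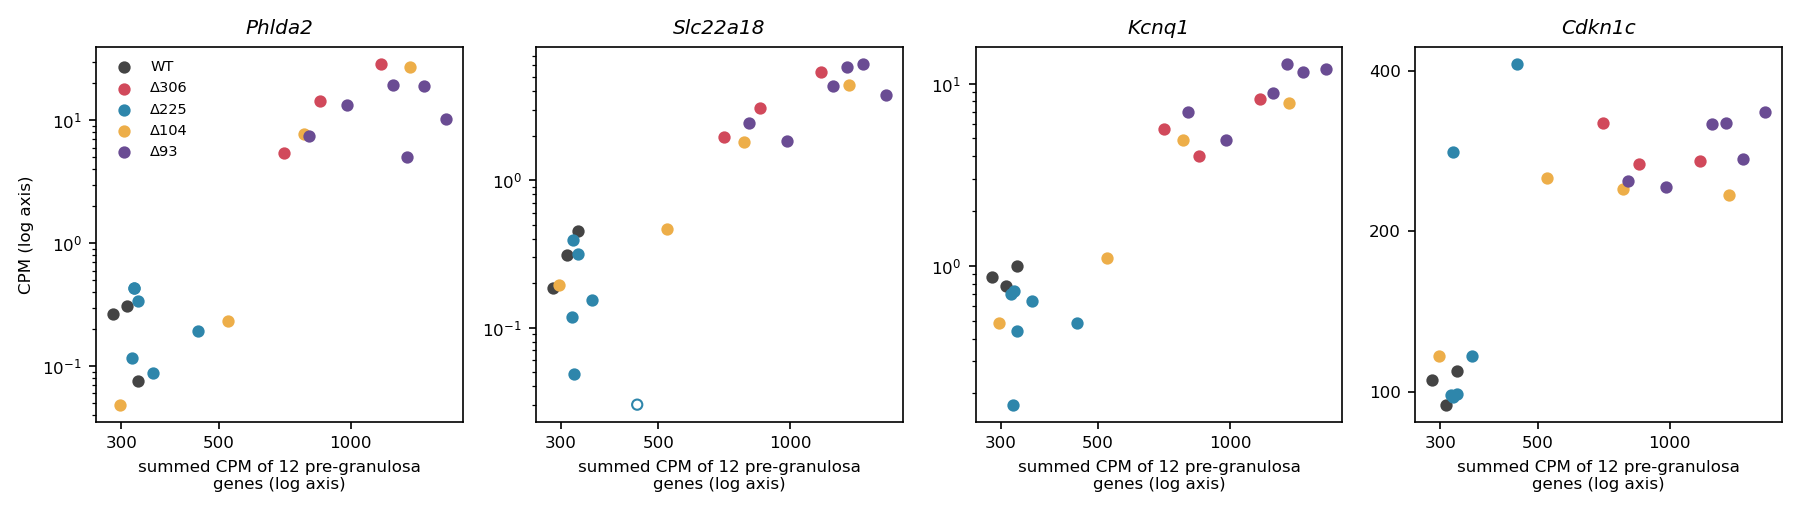
Phlda2 and its neighbours Slc22a18, Kcnq1 and Cdkn1c (CPM, log axis) against the summed CPM of 12 pre-granulosa genes (log axis) in 22 libraries, coloured by genotype; the open circle is a library at 0 counts of Slc22a18, drawn at the bottom. Phlda2, Slc22a18 and Kcnq1 are low in the libraries with sums up to 524 CPM and higher in those from 706 CPM on; Cdkn1c is also high in 2 Δ225 libraries and Δ104 replicate 3.

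The comparisons with WT asked how many members differed in each genotype. Calls are those of edgeR's quasi-likelihood test with Benjamini-Hochberg adjustment over all genes tested, at a threshold of 0.05. In Δ93, 9 of 39 members were called, beside 14.1% of all genes. Of these 3 were higher, beside 7.23% of all genes, and 6 lower, beside 6.84%. Δ306 had 2 members called, beside 6.43% of all genes, 1 higher (2.96% of all genes) and 1 lower (3.46%). In Δ225 a lone member, Peg13, was called, and it was lower, beside 0.209% of all genes, 0.131% higher and 0.0785% lower. In Δ104 edgeR called 0 members, beside 0.061% of all genes (0.061% higher and 0.0% lower). There 8 members had an unadjusted p under 0.05, and DESeq2 called 1, beside 2.66% of all genes. The median log2 fold change of the members was −0.03 in Δ306, 0.12 in Δ225, −0.02 in Δ104 and −0.02 in Δ93, beside 0.08, 0.04, 0.06 and 0.06 for all genes. By known allele, Δ93 had 2 of 16 maternally expressed members called higher and 4 lower, and 1 of 23 paternally expressed members higher and 2 lower. The median log2 fold change in Δ93 was −0.40 for maternally and 0.07 for paternally expressed members. These counts do not separate the alleles, so allele use in these gonads was not measured. The count of called members in Δ93 fell to 4 without WT replicate 1, beside 6.25% of all genes. Without the libraries low in Y-linked RNA it was 5, beside 6.62%. In Δ306 the count was 0 without any single WT library (2.11% to 2.65% of all genes) or Δ306 replicate 3 (0.856%). It was 1 without Δ306 replicate 2, beside 1.52%. When Δ306 and WT were fitted alone it was 9, where 3429 of 19623 genes (17.5%) were called in all.

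**Figure D4:**
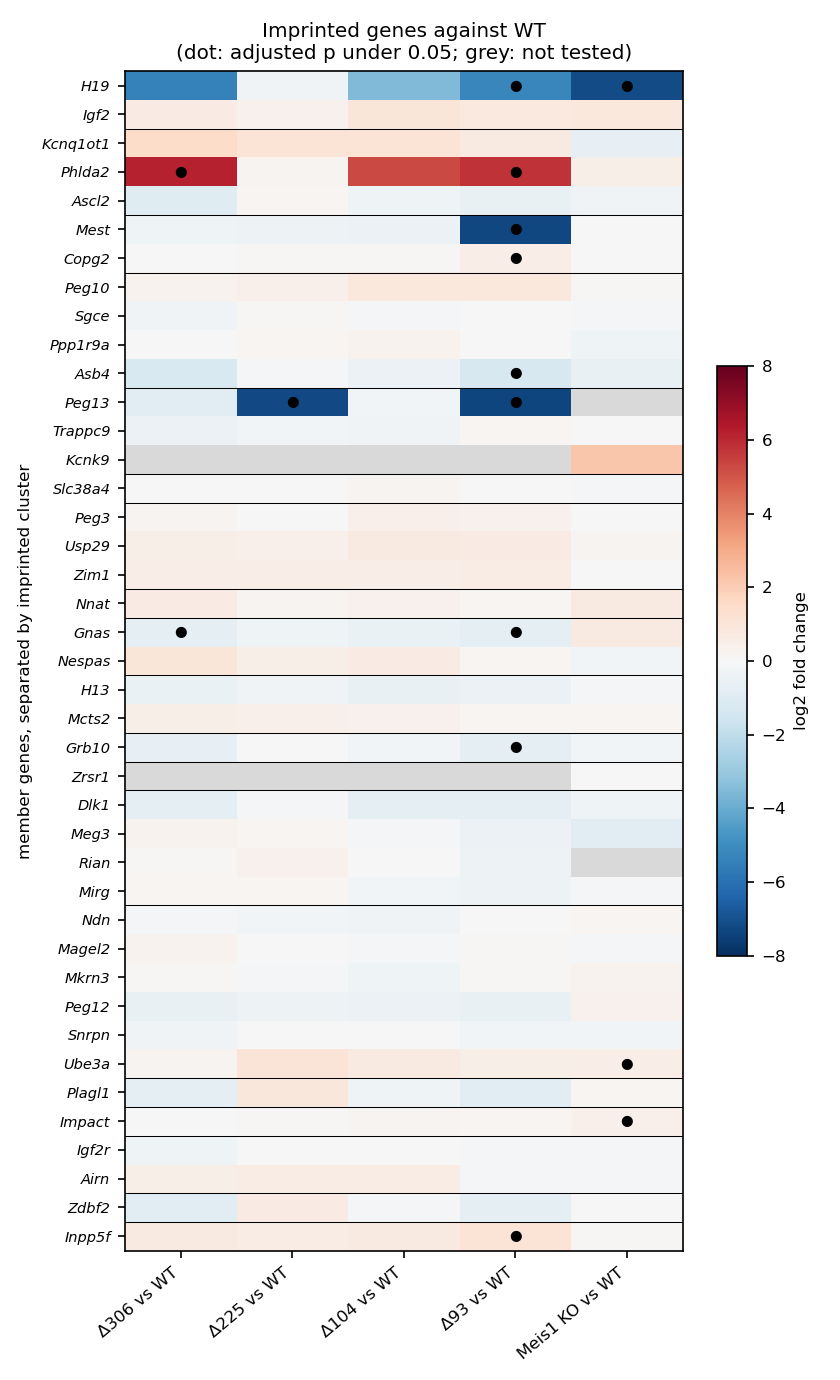
Log2 fold change against WT of each member (y axis, separated by cluster) in the 4 deletions and Meis1 KO (x axis); red is higher and blue lower than WT, black dots mark an adjusted p under 0.05, and grey marks members not tested. The strong colours fall on H19, Phlda2, Mest and Peg13, and most other members lie near 0.

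Further members called in Δ93 against WT changed less. Gnas, which encodes the stimulatory G protein alpha subunit, was at 1754, 1582 and 1486 CPM in WT, 1185, 847 and 925 in Δ306, 981 to 1484 (median 1301) in Δ225, 778, 1015, 1419 and 1305 in Δ104 and 773 to 1062 (median 1024) in Δ93. No library of Δ306, Δ225, Δ104 or Δ93 reached the lowest WT library, although Gnas was called only in Δ93 and Δ306. It fell by 0.72 on the log2 scale in Δ93 (SE 0.17, adjusted p 0.0076; 0.051 without WT replicate 1) and by 0.71 in Δ306 (SE 0.20, adjusted p 0.0391). The call in Δ306 was lost without any WT library or without Δ306 replicate 2 or 3 (adjusted p 0.0616 to 0.155), without the libraries low in Y-linked RNA (0.164), with no composition factor (0.0605), with no filter (0.0763) and in another deposited table of Δ306 and WT (0.255). Nespas, a paternally expressed antisense RNA of the locus whose annotation overlaps Gnas by 11117 bases, stayed at 0.551 to 2.65 CPM and was not called.

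Asb4, an ankyrin-repeat gene at the edge of the Peg10 cluster, was at 71.3, 58.9 and 58.6 CPM in WT, 33.4, 24.3 and 22.1 in Δ306, 18.6, 32.6, 69.8 and 63.5 in Δ104, 42.4 to 77.8 (median 58.8) in Δ225 and 11.4 to 37.0 (median 26.7) in Δ93. Libraries of Δ306 and Δ93 all lay below WT, and Δ104 replicates 1 and 2 did too. The decrease in Δ93 was −1.27 ± 0.32 (SE; adjusted p = 0.0126), lost without WT replicate 1 (0.0617) and without the libraries low in Y-linked RNA (0.0592), and that in Δ306 was −1.24 ± 0.39 (SE; adjusted p = 0.0608). The Sertoli sum was 225.4, 809, 1792 and 2903 CPM in Δ104 replicates 1 to 4; Asb4 was lowest in the same pair of libraries as the Sertoli genes, whose part was not tested. Inpp5f, an inositol phosphatase gene, was at 22.3, 30.3 and 38.4 CPM in WT and 56.2 to 76.5 (median 62.5) in Δ93. It rose in Δ93 by 1.103 ± 0.23 (SE; adjusted p = 0.00381) without overlap, under every alternative. The other deletions held 41.3, 52.4 and 57.8 CPM (Δ306), 39.6 to 56.7 (median 44.9) (Δ225) and 70.9, 58.3, 31.5 and 35.3 (Δ104), with changes of 0.74, 0.62 and 0.69 that were not called.

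Differences between the deletions were tested directly. Δ225 and Δ93 differed at 9 of 39 members, beside 20.8% of all genes, with 7 higher in Δ225 (9.96% of all genes) and 2 lower (10.8%). Δ225 and Δ306 differed at 6, beside 13.2%, with 4 higher in Δ225 (6.47%) and 2 lower (6.74%). Δ225 and Δ104 differed at Phlda2 and Peg13, both lower in Δ225, beside 0.645% of all genes (0.0262% higher and 0.619% lower). Mest and Peg13 were the 2 members called between Δ93 and Δ104, both lower in Δ93, beside 0.0523% of all genes (0.00436% higher and 0.0479% lower). Between Δ93 and Δ306 the 2 members called were again Mest and Peg13, both lower in Δ93, beside 0.0785% (0.0131% higher and 0.0654% lower). Between Δ104 and Δ306 edgeR called 0 members, beside 0.0654% (0.061% higher in Δ104 and 0.00436% lower). There 1 member had an unadjusted p under 0.05, and DESeq2 called 0, beside 1.81% of all genes. The median log2 fold change of the members was 0.16 for Δ225 against Δ93, 0.11 against Δ306 and 0.05 against Δ104, beside 0.00, −0.01 and −0.01 for all genes. For Δ93 it was −0.19 against Δ104 and 0.03 against Δ306, beside −0.01 and 0.02, and for Δ104 against Δ306 0.13 beside −0.01. Counts moved with single libraries. Δ225 against Δ306 gave 2 without Δ306 replicate 2 or 3, beside 5.39% and 3.71% of all genes. Δ225 against Δ104 gave 1 without Δ225 replicate 5 or Δ104 replicate 1, beside 0.325% and 0.0394%.

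Plagl1 and Zdbf2, both paternally expressed zinc-finger genes, separated Δ225 from Δ93 and Δ306. Plagl1 was at 1056, 395, 806, 390.1, 347 and 293 CPM in Δ225 replicates 1 to 6, 236, 137 and 157 in Δ306, 127 to 177 (median 160.4) in Δ93, 94.1, 226, 338 and 289 in Δ104 and 354, 254 and 277 in WT. All Δ225 libraries lay above all Δ93 and Δ306 libraries, with replicates 1 and 3 far above the rest. The difference was 1.80 ± 0.31 (SE; adjusted p = 3.89e-04) against Δ93 and 1.63 ± 0.39 (SE; adjusted p = 0.0105) against Δ306. Zdbf2 was at 83.6 to 177 (median 112) CPM in Δ225, 60.5, 37.8 and 39.6 in Δ306, 25.9 to 64.1 (median 49.8) in Δ93, 54.1, 64.0, 129 and 56.5 in Δ104 and 102, 87.2 and 53.8 in WT. Its Δ225 libraries also lay above those of Δ93 and Δ306, with 1.37 ± 0.26 (SE; adjusted p = 0.00102) and 1.45 ± 0.34 (SE; adjusted p = 0.00885). The calls against Δ93 were kept under every alternative. Those against Δ306 were lost without Δ306 replicate 2 (adjusted p 0.0602 for Plagl1 and 0.0519 for Zdbf2), without Δ306 replicate 3 (0.0612 and 0.0581) and without the libraries low in Y-linked RNA (0.0925 and 0.0756), and Plagl1 also in a fit of these genotypes alone (0.0536).

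Rian, a maternally expressed RNA that hosts small nucleolar RNAs, was at 337, 360.3, 645, 359.6, 358 and 345 CPM in Δ225 replicates 1 to 6 and 263, 192, 242, 240.0, 260.3 and 239 CPM in Δ93 replicates 1 to 6, without overlap. WT held 398, 255 and 282 CPM, Δ306 373, 341 and 274 and Δ104 181, 305, 392 and 415. The difference between Δ225 and Δ93, 0.74 ± 0.19 (SE; adjusted p = 0.00887), was kept under every alternative. The other genes of its cluster were not called in any comparison. Dlk1, a Notch-family ligand gene, ranged from 122 to 556 CPM, Meg3 from 170.0 to 685 CPM and Mirg from 5.58 to 22.3 CPM over the 22 libraries. Ube3a, a ubiquitin ligase gene, was at 273, 117, 138, 103.9, 94.0 and 92.6 CPM in Δ225 replicates 1 to 6, 77.1, 78.1 and 71.9 in Δ306, 59.2, 71.4 and 68.7 in WT, 97.1, 119.5, 127 and 84.6 in Δ104 and 77.0 to 99.0 (median 94.3) in Δ93. The excess of Δ225 over Δ306, 0.85 ± 0.26 (SE; adjusted p = 0.0335), was not called without any single Δ306 library (adjusted p 0.0758 to 0.126), in a fit of these genotypes alone (0.163) or without the libraries low in Y-linked RNA (0.141). It was 0.52 without Δ225 replicate 1, and no difference was called between Δ225 and Δ93.

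Genes already described also separated Δ225 from Δ93. Sertoli and fetal Leydig sums differed between these genotypes as given at the start, and their part in the differences was not tested. H19 was higher in Δ225 by 4.94 ± 1.35 (SE; adjusted p = 0.0134), although 3 Δ225 libraries lay below all Δ93 libraries. That call was lost without the libraries low in Y-linked RNA (0.114) and with the replicate number as a block. Phlda2 was lower in Δ225, with log2 differences of −5.56 ± 0.98 (SE; adjusted p = 4.78e-04) against Δ93, −5.94 ± 1.04 (SE; adjusted p = 0.00125) against Δ306 and −5.07 ± 0.995 (SE; adjusted p = 0.0147) against Δ104. The last was −3.37 and no longer called without Δ104 replicate 1 (adjusted p 0.273), and was lost without Δ225 replicate 5 (0.0548) and without the libraries low in Y-linked RNA (0.0986). This call against Δ104 was also lost with the replicate number as a block. Asb4 was higher in Δ225 than in Δ93 by 1.16 ± 0.28 (SE; adjusted p = 0.00541), though not called once the libraries low in Y-linked RNA were left out (0.0587). It was higher than in Δ306 by 1.14 ± 0.35 (SE; adjusted p = 0.0375), which was not called without Δ306 replicate 2 or 3, without Δ225 replicate 1, 4 or 5 (adjusted p 0.0505 to 0.159), with no composition factor (0.0532) or without the libraries low in Y-linked RNA (0.156). The replicate number as a block removed this Asb4 call too. Copg2 was lower in Δ225 than in Δ93, with −0.42 ± 0.13 (SE; adjusted p = 0.0226), lost without Δ93 replicate 2 (0.0729), with no filter (0.0572), in a fit of these genotypes alone (0.0509) and without the libraries low in Y-linked RNA (0.106).

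In Meis1 KO against WT, 3 of 39 members were called, beside 1.8% of all genes, with 2 higher (1.27% of all genes) and 1 lower (0.53%). The median log2 fold change of the members was −0.02, beside 0.00 for all genes. Ube3a was at 111, 132 and 125 CPM in WT and 169, 174, 169.7 and 185 CPM in Meis1 KO, a rise of 0.50 ± 0.08 (SE; adjusted p = 0.034). In the table of all deletions every deletion library also lay above every WT library in Ube3a. There Δ306 was just above WT, at 71.9 to 78.1 CPM against 59.2 to 71.4. Genotype and the later sample numbers of Meis1 KO cannot be told apart as the source of its rise. Impact, a paternally expressed regulator of translation under stress, was at 44.5, 45.6 and 42.3 CPM in WT and 58.5, 56.5, 60.01 and 58.5 CPM in Meis1 KO, a rise of 0.40 ± 0.06 (SE; adjusted p = 0.034). Neither gene's groups overlapped, and the changes were small. H19 was at 2344, 17.3 and 2831 CPM in WT and 9.78, 12.5, 14.4 and 12.6 CPM in Meis1 KO. All Meis1 KO libraries lay below even the low WT library, and the change was −7.13 ± 1.31 (SE; adjusted p = 0.0441). All 3 calls were lost without WT replicate 3 (adjusted p 0.0902 for Impact, 0.0856 for Ube3a and 0.0945 for H19) and without any single Meis1 KO library (0.096 to 0.144). With the replicate number as a block all 3 were lost as well. Ube3a and Impact were also lost without WT replicate 2 (0.0704 and 0.099), and the count was 6 without WT replicate 1, where 2204 of 17072 genes (12.9%) were called in all. The muscle sum was 27.4 to 129 CPM in WT and 10.7 to 17.8 CPM in Meis1 KO, and its part in the H19 difference was not tested.

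The tables were counted differently, so levels are compared only within each. In the same 3 WT samples Gnas was at 1754, 1582 and 1486 CPM in the table of all deletions and 70.0, 58.3 and 37.2 CPM in the Meis1 table. Zrsr1, a paternally expressed retrogene related to a splicing factor, had 0 counts in all 22 libraries of the former and 16.3, 15.3 and 17.1 CPM in WT and 17.2, 15.2, 14.7 and 17.2 CPM in Meis1 KO in the latter. H19 in WT was also higher in the Meis1 table than in the other. The cause was not tested.

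The remaining clusters held members that were called nowhere. In the Peg10 cluster, Peg10, a retrotransposon-derived gene needed in the placenta, was at 402, 324 and 261 CPM in WT and 402 to 746 (median 635) in Δ93, with a change of 0.84 ± 0.34 (SE; adjusted p = 0.102) that was not called. Its neighbours Sgce (25.5 to 51.2 CPM) and Ppp1r9a (43.8 to 135 CPM) were not called in any comparison. Peg3, a zinc-finger gene and the most abundant member by mean CPM, was at 1481, 1544 and 1166 CPM in WT, 1721, 1420.3 and 1648 in Δ306, 1058 to 2099 (median 1263) in Δ225, 2479, 2166, 1902 and 911 in Δ104 and 1078 to 2199 (median 1967) in Δ93. Its neighbours Usp29 (14.4 to 33.1 CPM) and Zim1 (96.3 to 300.5 CPM) were, like Peg3, called in no comparison, and all 3 were lowest within Δ104 in replicate 4. Slc38a4, an amino acid transporter gene, was at 160.4, 145 and 142 CPM in WT, 167, 116 and 151 in Δ306, 120.2 to 224 (median 138) in Δ225, 203, 208, 171 and 109 in Δ104 and 107 to 176 (median 152) in Δ93, and all groups overlapped WT. H13, a signal peptide peptidase gene, was at 112, 90.7 and 88.5 CPM in WT, 73.4, 61.2 and 68.0 in Δ306, 53.7 to 96.2 (median 83.3) in Δ225, 46.5, 61.1, 76.4 and 77.6 in Δ104 and 54.3 to 83.7 (median 70.2) in Δ93. Every library of Δ306, Δ104 and Δ93 lay below WT, but the changes of −0.52, −0.57 and −0.45 were not called. Mcts2, a paternally expressed retrogene within H13, ranged from 8.06 to 17.4 CPM and was not called.

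Igf2r, the maternally expressed receptor that clears insulin-like growth factor 2, was at 446, 376 and 317 CPM in WT, 355, 234 and 292 in Δ306, 283 to 492.9 (median 343) in Δ225, 413, 407, 428 and 245 in Δ104 and 254 to 409 (median 351) in Δ93. Airn, the paternally expressed antisense RNA that silences it, was at 23.0, 8.47 and 7.83 CPM in WT, where replicate 1 stood above the others, and between 7.56 and 35.1 CPM in the deletions. Their annotations overlap by 28354 bases on opposite strands, and neither was called. In the Snrpn cluster, a region tied to Prader-Willi and Angelman syndromes, Ndn (53.2 to 142 CPM), Magel2 (1.46 to 13.2 CPM), Mkrn3 (3.20 to 8.99 CPM), Peg12 (13.4 to 36.8 CPM) and Snrpn (6.96 to 23.5 CPM) were called in no comparison. In the table of all deletions Impact was steady, at 35.4 to 58.0 CPM over the 22 libraries.

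The spread between libraries of the same genotype, taken as the within-group SD of log2(CPM + 2) over the 22 libraries, set a few members apart from many. H19 had an SD of 2.66, and 0 of the 22941 genes tested had a larger one. Nnat followed with 1.03, Peg13 with 1.03, Phlda2 with 0.92 and Kcnq1ot1 with 0.90, each exceeded by 0.658% to 1.35% of all genes. Mest, at 0.36, and Grb10, at 0.31, were not among the variable members in these 22 libraries, since Mest differed between genotypes and the low Grb10 sample is a Meis1 KO. The median SD of the 39 members tested was 0.38, beside 0.24 for all genes tested. Among genes with a mean of at least 5 CPM it was 0.37 for 36 members and 0.29 for 12503 genes. Only 5 members, Sgce, Copg2, Mcts2, Nespas and Impact, lay under the median of all genes tested. Igf2r, H13, Mkrn3 and Gnas lay above it but under the median of genes with a mean of at least 5 CPM.

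**Figure D5:**
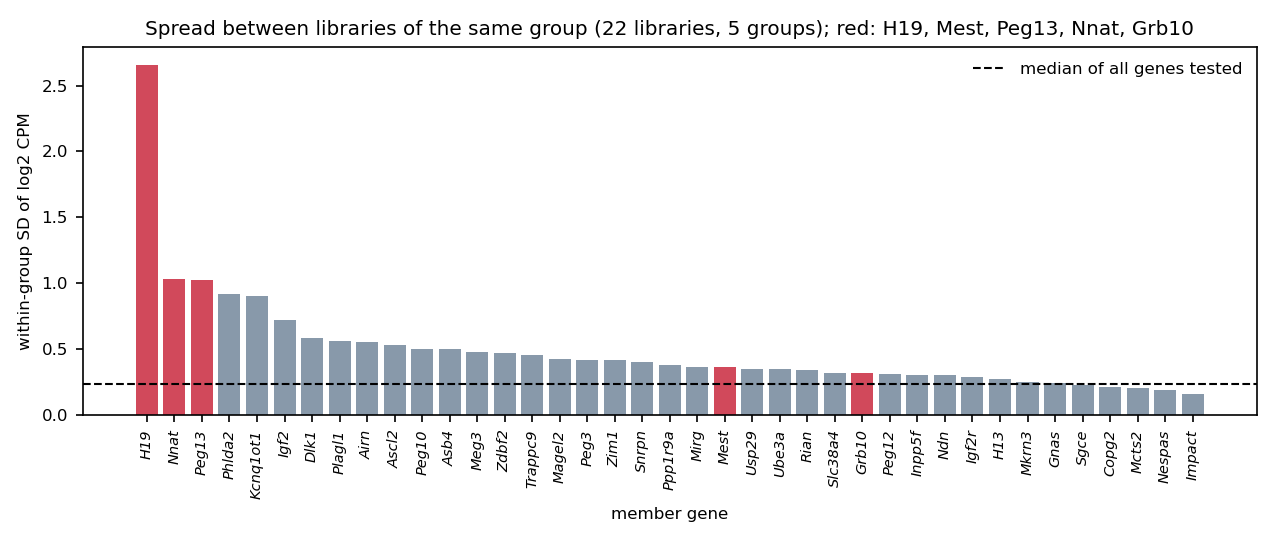
Within-group SD of log2(CPM + 2) of the 39 members tested (bars from 0; 22 libraries of 5 genotypes; red marks the 5 genes singled out), with the median of all genes tested as a dashed line. H19 stands at 2.66, 34 members lie above the line at 0.24, and Mest and Grb10 fall in the middle of the members. The line includes genes under 5 CPM, and the median without them was 0.29.

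Members did not spread evenly over libraries. WT replicate 3 was the lowest of its group for 21 of 39 members (53.8%), where it was the lowest for 32.1% of all genes tested, and WT replicate 1 the highest for 24 members (61.5%), beside 40.7% of all genes. Δ225 replicate 3, the library with the high muscle sum, was the highest of its group for 17 members (43.6%), beside 18.0% of all genes. Δ104 replicate 4 and Δ93 replicate 4 were each the lowest for 17 members (43.6%), beside 30.8% and 26.1% of all genes. Δ93 replicate 4 is among the libraries low in Y-linked RNA and, with Δ93 replicate 1, had a high sum of blood genes, at 52664 and 58339 CPM for replicates 1 and 4 against 9114, 6427, 7476 and 5265 CPM in the others. The part of these in the order was not tested.

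Other imprinted genes were taken from a list of 40, of which 34 were tested in each table. In Δ93 against WT 8 were called, beside 14.1% of all genes, 7 higher (7.23% of all genes) and 1 lower (6.84%). In Δ306 5 were called, beside 6.43%, all higher (2.96%). In Δ225, Δ104 and Meis1 KO edgeR called 0 of 34, beside 0.209%, 0.061% and 1.8% of all genes. There 3, 7 and 5 had an unadjusted p under 0.05. Beside Kcnq1, Slc22a18 and Cdkn1c, the largest changes in Δ93 were in the deiodinase gene Dio3 (1.74), the protease inhibitor gene Tfpi2 (1.49) and the chloride channel gene Ano1 (1.46). Dio3 was not called without WT replicate 1 or 2 (adjusted p 0.0924 and 0.0686) or without the libraries low in Y-linked RNA (0.0815). The Ano1 call was lost without replicate 2 or 3 of WT, without replicate 2 or 5 of Δ93 (0.0506 to 0.186) and without those libraries (0.131), and Tfpi2 was kept under every alternative. Between Δ225 and Δ93 10 were called, beside 20.8% of all genes, 4 higher (9.96%) and 6 lower (10.8%) in Δ225. Between Δ225 and Δ306 8 were called, beside 13.2%, 2 higher (6.47%) and 6 lower (6.74%). Between Δ225 and Δ104 Kcnq1 and Slc22a18 were called, both lower, beside 0.645% (0.619% lower), and neither was called without Δ104 replicate 1 (adjusted p 0.229 and 0.452) or 2 (0.059 and 0.0733) or without the libraries low in Y-linked RNA (0.0853 and 0.135). The median log2 fold change of the list in Δ93 against WT was 0.09, beside 0.06 for all genes. Genes that set, keep or remove methylation at imprints were taken from a list of 20, of which 19 were tested in the table of all deletions and 18 in the Meis1 table. In Δ93 against WT 2 of 19 were called, beside 14.1% of all genes: the demethylase gene Kdm1b rose by 0.79 ± 0.23 (SE; adjusted p = 0.0256) and the methyltransferase gene Dnmt3b fell by 0.58 on the log2 scale (SE 0.16, adjusted p 0.0164). The Kdm1b call was lost without replicate 1 or 3 of WT or replicate 2 of Δ93 (adjusted p 0.0532 to 0.189), and the Dnmt3b call without replicate 1 or 2 of WT (0.0835 and 0.0844). Between Δ225 and Δ93 4 of 19 were called, beside 20.8%. Δ225 exceeded Δ93 in Tet1 (1.06), Tet2 (0.82) and Arid4a (0.74) and had less Kdm1b (−0.52). Against Δ306 it exceeded in Tet1 alone (1.41), 1 of 19 beside 13.2%. Each of these calls of Δ225 was lost without the libraries low in Y-linked RNA (adjusted p 0.0747 to 0.127) and without at least 1 single library. In the other 8 comparisons edgeR called 0 of the maintenance genes, beside 0.0523% to 6.43% of all genes, with 0 to 5 at an unadjusted p under 0.05.

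Genes whose levels ran most like each of the 5 over the 22 libraries were listed by Pearson correlation of log2 CPM, which pools the genotypes and is a description. For Mest the nearest was the predicted gene Gm56999 (0.920), followed by Minar1 (0.806) and Pcdhgb4 (0.795). Grb10 ran with Frmd4a (0.958), Maml2 (0.958) and Adamts9 (0.952). The nearest genes of H19 (Mcoln3, 0.699), Peg13 (Gm9292, 0.744) and Nnat (3830408C21Rik, 0.564) were much less alike, and none of these genes is a member.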

How the data were processed

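RNA was sequenced from 26 mouse gonad samples with a directional poly(A) kit, per the labels' protocols. The deposited count tables hold whole-number counts per Ensembl gene that the authors made from reads aligned to mm10, with STAR (2.7.10a for Δ306 and WT), featureCounts of Subread and DESeq2 among the tools, per the submitters' processing notes. The annotation and strand setting are not given in the sources used here. The Meis1 table was analysed apart from the table of all deletions because its counting differs.

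Counts were fitted in R 4.3.3 with edgeR 4.0.16 (filterByExpr, TMM scaling, quasi-likelihood F-test, Benjamini-Hochberg adjustment over all genes tested). The deletions and WT were fitted together (22 libraries, 22941 genes, 17 residual degrees of freedom) and Meis1 KO with WT (7 libraries, 16791 genes, 5). Standard errors follow from the log2 fold change and its F statistic, and the prior count for within-group SD was 2 CPM. The members, gene lists and singled-out genes were chosen with earlier results of these data known. Values in every library, or range and median for larger groups, are given for the 5 singled-out genes, for members called in any comparison or meeting the all-or-none rule, and for the most abundant member of each cluster without these; at most 6 called genes are named per list. The alternatives were DESeq2 1.42.0, RLE scaling, no composition factor, no filter, a replicate block, leaving out each library, fitting 2 groups alone, another deposited table for Δ306 and, added after seeing the data, leaving out 4 libraries low in Y-linked RNA.

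Same-numbered libraries met the criterion used for deviating together (every correlation over 0.1) only between Δ93 and Δ104. The 4 pairs there had correlations of 0.106 to 0.165, and only 1 correlated best within its own number. Between Δ225 and Δ104 the lowest of the 4 correlations, 0.0954, just missed the limit, and the highest was 0.366. The labels do not say that the numbers mark a litter or day. Gene positions are from GENCODE M21 and promoters from RefSeq, both on GRCm38.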

Additional observations from a re-analysis of the deposited data

Results flagged for a closer look

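In groups of 4 to 10 libraries, 11 values of named members stood farther from the nearest other library than Dixon's 95% limit allows. There were 78 groups of a member and a genotype of that size. Those of Zrsr1 in Δ225, Δ104 and Δ93, at 0 counts throughout, could not be tested. Chance passes that limit in about 1 of 20 groups. Of the 11, 6 belong to H19, Peg13 or Grb10, which were singled out for such library values, and the other genes were named with their values known, so the number is not read against that rate. Among the singled-out genes, H19 reached 298 CPM in Δ104 replicate 1, where the others were at or under 13.9 CPM, and Grb10 was at 13.48 CPM in Meis1 KO replicate 1. Peg13 was at 1.61 CPM in Δ104 replicate 4, the library of that genotype lowest in it. The highest Peg13 values of Δ225 and Δ93, 0.390 CPM in Δ225 replicate 1 and 0.292 CPM in Δ93 replicate 4, rested on 4 and 11 counts.

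Other distant values were highs in Δ225 and lows elsewhere. Grb10 was at 1039.5 CPM and Rian at 645 CPM in Δ225 replicate 3, the library with the high muscle sum. Ube3a was at 273 CPM in Δ225 replicate 1, the shallowest library. The lows were Rian at 192 CPM in Δ93 replicate 2, Ube3a at 77.0 CPM in Δ93 replicate 4 and Igf2r at 245 CPM in Δ104 replicate 4.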

How the results depend on the processing

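Of 36 pairs of a member and a comparison that were called, 15 kept the call under every alternative run and 0 changed direction. The number of members called in Δ306 against WT was 4 with DESeq2, beside 11.9% of all genes, and 1 with no filter, beside 2.28%. It was 9 with these groups fitted alone (17.5% of all genes) and 9 in the other deposited table (18.8%). Without the libraries low in Y-linked RNA it was 0, beside 0.441%. DESeq2 called 2 in Δ225 (3.57% of all genes), 1 in Δ104 (2.66%) and 6 in Meis1 KO (9.24%), each against WT. Without the libraries low in Y-linked RNA the counts were 5 in Δ93 against WT (6.62% of all genes) and 2 in Δ225 against Δ306 (2.23%). They were 1 in each of Δ225 against Δ104 (0.0605%), Δ93 against Δ104 (0.00864%) and Δ93 against Δ306 (0.00864%). Fitting 2 groups alone gave 3 in Δ225 against Δ306, beside 9.7% of all genes. It gave 1 in each of Δ225 against Δ104 (0.00534%) and Δ93 against Δ306 (0.0385%).

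With the replicate number as a block 11 calls were lost. The block also moved the calls over all genes, from 48 to 1638 in Δ225 and from 14 to 470 in Δ104 against WT, and down to 2 from 148 in Δ225 against Δ104, to 2 from 12 in Δ93 against Δ104, to 3 from 18 in Δ93 against Δ306 and to 32 from 303 in Meis1 KO. The blocked counts of members were 3 in Δ225 and 3 in Δ104 against WT, 0 in Δ225 against Δ104, 1 in Δ93 against Δ104, 1 in Δ93 against Δ306 and 0 in Meis1 KO. Where the numbers share no stated origin this is only a hint, although in Δ306 and WT 3 of 3 pairs correlated best within their own number (0.0958 to 0.365).

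Leaving out a library gave 0 to 3 in Δ306, 1 to 2 in Δ225, 0 to 1 in Δ104, 4 to 9 in Δ93 and 0 to 6 in Meis1 KO against WT. Over all genes these fits called 0.856% to 5.48%, 0.021% to 0.535%, 0.0042% to 2.31%, 6.25% to 15.7% and 0.0899% to 12.9%, in that order. Leaving out a library gave 8 to 13 in Δ225 against Δ93, beside 15.0% to 28.3% of all genes. Against Δ306 it gave 2 to 6 (3.71% to 14.8%) and against Δ104 1 to 2 (0.0394% to 2.44%). The cause of these changes was not tested. A fold of 8 in place of 16 gave 3 all-or-none members in Δ225 (H19, Ascl2 and Magel2), beside 4.0% of all genes. Peg13 at 2 to 11 counts and Kcnk9 at 7 or fewer were limited by depth, and a group of 3 libraries cannot show how often a lone low library occurs.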
